A study of Triticum aestivum with 12 samples.

Results

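Low phosphorus was set against conventional phosphorus in the roots of Xindong20, a winter wheat variety, with every plant under drought. The comparison used 6 of the 12 arrays of the series, taken by the variety and phosphorus level in their titles: 3 low-phosphorus (LP) arrays and 3 conventional-phosphorus (CP) arrays. The other 6 arrays are LP and CP roots of a second variety, Xindong23, under the same treatments, and enter here through the shared estimate of the spread and a test of the difference between varieties. LP seedlings received 0.05 mmol/L phosphorus and CP seedlings 1.0 mmol/L, both in Hoagland solution in which potassium chloride stood in for part of the potassium phosphate at LP. After 14 days of culture, polyethylene glycol (PEG-6000) at 15% was added to both solutions for 7 days, which lowers the water available to roots, and no plants without PEG were analysed here. The design text names the replicates biological but not the number of seedlings behind each, so the p-values measure the spread between these arrays.

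Roots short of phosphate are known to make more phosphate transporters and secreted acid phosphatases, to replace membrane phospholipids by lipids without phosphorus, and to change their growth. Roots short of water are known to accumulate late embryogenesis abundant (LEA) proteins, dehydrins and soluble sugars. The list of phosphate starvation genes had 0 members among the named genes of the annotation used here, so that response could not be followed by gene name.

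Values are log2 intensities as deposited, and arrays are written LP1 to LP3 and CP1 to CP3 by their replicate number. Each of 61179 probe sets, the groups of probes that report a transcript, was tested with limma on all 12 arrays, and a probe set was called at a Benjamini-Hochberg adjusted p under 0.05. Changes are LP minus CP on the log2 scale, and "rose" and "fell" are used of called probe sets. A group mean below 4.33, the highest array median, is named dim, and a fold against a dim mean is given as "at least". In probe set IDs the dots are written as _. Array medians of the 6 arrays lay between 4.25 and 4.33.

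LP3 stood apart from the other 5 arrays in part of the control probe sets. Its control probe sets for ubiquitin had a 3' minus 5' difference of 2.84, while LP1 and LP2 had -0.48 and -0.88 and CP1, CP2 and CP3 had -0.54, -0.41 and -0.54. For glucose-6-phosphate dehydrogenase the difference was 3.68, 2.79 and 6.86 on the LP arrays and 4.68, 3.81 and 3.93 on the CP arrays. LP3 was also the highest of the 6 arrays for GAPDH (-2.19, the others -3.27 to -2.60) and actin (-1.70, the others -2.77 to -2.04), but for EF1a it had 1.82, above LP1 and LP2 at 1.39 and 1.5 and below the CP arrays at 1.85 to 1.96. A wide difference of this kind marks RNA whose 5' ends are under-represented. LP3 correlated with LP1 and LP2 at 0.912 and 0.899 over all probe sets, where LP1 and LP2 correlated with each other at 0.972 and the CP arrays among themselves at 0.980 to 0.986. The calls below are therefore given with and without LP3.

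**Figure D1:**
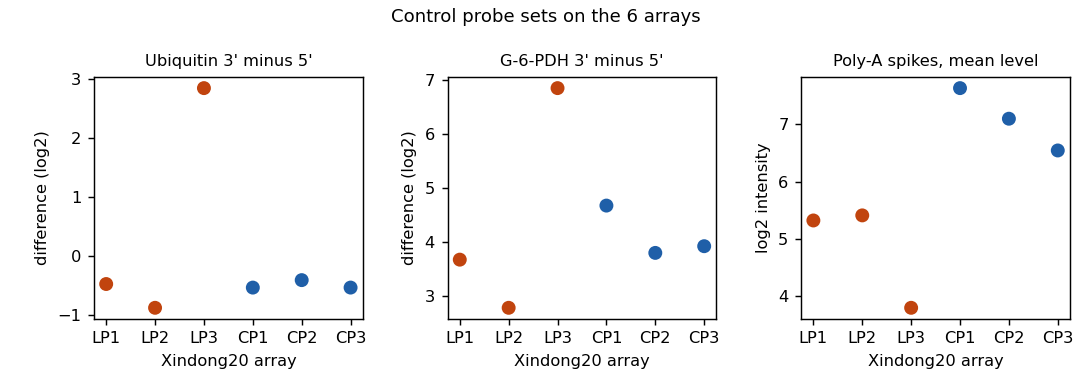
Control probe sets on the 6 Xindong20 arrays, with the log2 3' minus 5' difference of ubiquitin (left) and of glucose-6-phosphate dehydrogenase (middle), and the mean log2 level of the poly-A spikes (right). LP3 is the highest point in both difference panels at 2.84 and 6.86, and the 3 LP arrays lie below the 3 CP arrays in the spike panel.

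A further control moved with phosphorus on all 3 LP arrays. The 36 probe sets of the poly-A spikes, bacterial RNAs added before labelling, averaged 5.32, 5.41 and 3.80 on the LP arrays against 7.63, 7.10 and 6.55 on the CP arrays, or 4.85 ± 0.91 at LP and 7.09 ± 0.54 at CP (SD, n = 3 each). The groups did not overlap. The median SD between replicates was 0.335 at LP and 0.181 at CP. A fit with the spike level as a covariate called 5 probe sets. Its median SE of the change was 0.305, against 0.216 without the covariate. Since LP and CP arrays did not overlap in spike level, that fit cannot separate the spikes from phosphorus. The part of the spike level in the results below was therefore not tested, and calls lost in that fit do not decide it.

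Between LP and CP roots 1072 probe sets changed (1.75% of those tested), of which 597 rose (0.976%) and 475 fell (0.776%). These calls rest on the fit over both varieties, and the 6 Xindong20 arrays alone gave 5. Of the 1072, 620 changed at least 2-fold, 160 at least 4-fold and 13 at least 16-fold. The larger changes were mostly rises, with 114 higher and 46 lower among those of at least 4-fold. Across all probe sets the median change was -0.05 and 44.3% were positive, against -0.11 and 38.6% without LP3. At an unadjusted p under 0.05 limma listed 11332 (18.5%). In whole roots, fewer cells of a type and less RNA per cell cannot be told apart.

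The count depended on which arrays were in the fit. On the Xindong20 arrays alone 8272 had an unadjusted p under 0.05 in limma beside the 5 calls. Leaving out 1 array at a time gave 682 and 434 calls when LP1 or LP2 was dropped, and 149, 175 and 201 when CP1, CP2 or CP3 was. Without a Xindong23 CP array, which enters through the shared variance, it was 410, 306 and 329 for replicates 1, 2 and 3. Quantile normalization of the deposited values gave 510 higher and 773 lower, beside the 597 and 475 above, so the split between rises and falls depends on the scaling.

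Without LP3, limma called 1381 probe sets (2.26%), 672 higher (1.1%) and 709 lower (1.16%) at LP. Both fits shared 736 calls, all in the same direction. A further 336 were called with LP3 only, and in 224 of these LP3 lay farther from the CP mean than both other LP arrays. The 645 called without LP3 only were of the opposite kind, with LP3 short of both LP1 and LP2 in the called direction in 624. That count includes values of LP3 past the CP mean on the other side. The median size of the 645 was 0.64 with LP3 and 0.89 without it. Choosing the 336 and the 645 by what LP3 did to the call favours both patterns. Leaving out the LP3 arrays of both varieties gave 4750 calls (7.76%).

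**Figure D2:**
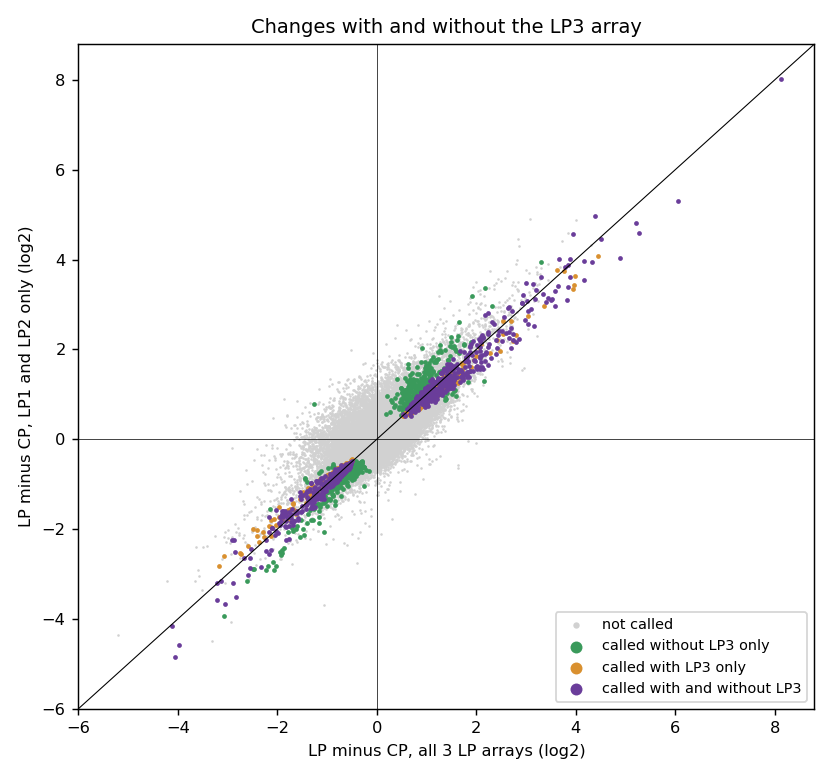
Each point is 1 probe set, with the log2 LP minus CP change over all 3 LP arrays on the x axis and over LP1 and LP2 alone on the y axis, and the line of equal values drawn. The 736 probe sets called both ways lie along the line in the upper right and lower left, while the 645 called without LP3 only lie mostly where the change was larger in size without LP3.

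As a description of how far each LP array followed the other pair, calls were made without it and its own values were then read. LP1 had the same sign as the call in 649 of 682 (95.2%), LP2 in 429 of 434 (98.8%) and LP3 in 1201 of 1381 (87.0%). The left-out array lay beyond all 3 CP arrays on the called side in 90.2%, 97.2% and 80.5% of the calls for LP1, LP2 and LP3. Over all probe sets, an LP array lay outside the CP range on either side in 70.2%, 69.8% and 76.1%. The same CP arrays stood on both sides of these counts, so they carry no test.

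Among the 1072 called probe sets, 817 lay above the array medians in both groups (2.85% of such probe sets). Another 119 were dim at CP alone, all of them rises, and 56 were dim at LP alone, all of them falls. Of the 28996 probe sets that were dim in both groups, 80 were called (0.276%). The calls fell into 975 clusters of the array design, in which probe sets of 1 transcript or of near copies share a stem in their ID. In 81 clusters at least 2 probe sets were called, and in 80 of these all calls went one way.

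The largest rise among the unannotated probe sets called with and without LP3 belonged to Ta_6744_2_S1_s_at. It stood at 12.80, 10.74 and 12.09 on LP1, LP2 and LP3, against 3.38, 4.05 and 3.80 on CP1, CP2 and CP3. The transcript was dim on every CP array and bright on every LP array. The change was 8.13 (SE 0.60, limma adjusted p = 0.00108), or at least 281-fold, and 8.03 without LP3 (adjusted p = 0.0052). Its partner from the same cluster, Ta_6744_1_S1_at, had 9.53, 6.45 and 10.002 at LP against 3.34, 3.36 and 3.48 at CP, a change of 5.27 (limma adjusted p = 0.017; 4.60 without LP3, adjusted p = 0.0276). LP2 was the lowest LP array for both. The call of Ta_6744_2_S1_s_at was lost with the poly-A spikes as a covariate (7.37, limma adjusted p = 0.0629).

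Ta_2870_2_S1_at had the largest rise among those of these probe sets that were measured above the array medians in both groups. Its levels were 8.76, 9.46 and 9.27 at LP against 4.41, 4.80 and 4.77 at CP, and every LP array lay far above every CP array. It rose by 4.51 (SE 0.26, limma adjusted p = 0.000143) and by 4.45 without LP3 (adjusted p = 0.00113). Ta_2870_1_S1_at, its partner, had 9.62, 10.65 and 9.71 at LP against 5.99, 6.73 and 5.63 at CP (3.88, limma adjusted p = 0.00416; 4.02 without LP3, adjusted p = 0.00756). Ta_2870_2_S1_at was called under each of the 23 alternative settings, with adjusted p-values from 2.85e-05 to 0.0452.

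The largest fall among the unannotated probe sets called with and without LP3 was that of Ta_18507_1_S1_s_at. It had 2.98, 3.13 and 3.14 at LP against 5.92, 8.93 and 6.78 at CP. The LP mean was dim, and the level was at least 17.5-fold lower at LP. The change was -4.13 (SE 0.58, limma adjusted p = 0.0142) and -4.16 without LP3 (adjusted p = 0.0264). CP2 was the highest array for this probe set and for 3 others of the cluster, Ta_18507_1_S1_at, Ta_18507_2_S1_a_at and Ta_18507_2_S1_x_at, whose changes of -2.43, -1.78 and -0.24 were not called. The call was lost on the Xindong20 arrays alone, with LP3 (limma adjusted p = 0.167) or without it (0.0886), with the replicate number as a block (0.0548) and with the spike covariate (0.0755). Ta_9029_1_A1_at fell by 4.06 on the log2 scale (SE 0.62, limma adjusted p = 0.019), with 4.68, 4.44 and 6.93 at LP against 9.6, 9.81 and 8.82 at CP. There LP3 was the LP array nearest to CP, and without it the change was -4.85 (adjusted p = 0.0052). This call was lost without CP1 (-3.97, limma adjusted p = 0.0744) or CP2 (-3.86, adjusted p = 0.0701), on the Xindong20 arrays alone (0.162), with the block (0.0732) and with the spike covariate (0.0748).

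Genes could be named for few of the calls, since the annotation paired 1273 of the 61179 probe sets with a gene. Of these 1273, 23 were called, beside 1.75% of all probe sets tested. The 23 covered 20 genes, 12 that rose and 8 that fell. Only 2 of the 20, SAHH and Prx1, carried a descriptive symbol, and the others are known by their locus number alone. In all 23 probe sets the LP arrays lay on one side of the CP arrays, as they did in 22.8% of all probe sets tested. The same held for all 1072 called probe sets. Choosing probe sets by a low p on these arrays favours it, so it adds no support. Without LP3, 9 of the 23 stayed called and the other 14 had adjusted p-values between 0.0507 and 0.0755, all with the same sign.

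**Figure D3:**
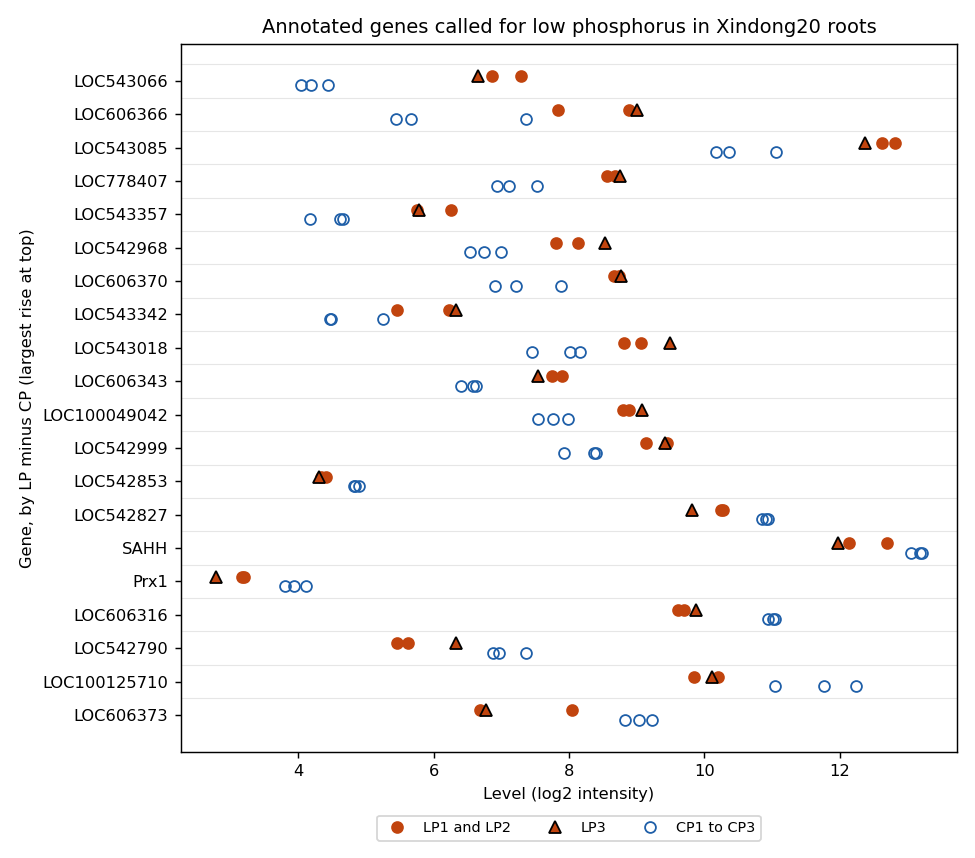
Log2 level on each of the 6 arrays for the 20 annotated genes that were called, 1 probe set a gene, with the largest rise at the top. Filled circles are LP1 and LP2, triangles LP3 and open circles the CP arrays. In every gene the LP symbols lie on one side of the CP symbols, which choosing called genes favours.

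SAHH encodes S-adenosylhomocysteine hydrolase, which removes the by-product of methylation reactions and so keeps them running. Its probe set Ta_1258_1_S1_a_at stood at 12.70, 12.14 and 11.97 at LP against 13.19, 13.06 and 13.22 at CP, a bright signal in both groups. It fell by 0.88 on the log2 scale (SE 0.18, limma adjusted p = 0.0402) and had a change of -0.73 without LP3 (adjusted p = 0.0567). The other SAHH probe set, Ta_1258_2_S1_x_at, had 12.33, 11.75 and 10.88 at LP against 12.93, 12.72 and 12.92 at CP (-1.21, adjusted p = 0.071). LP3 was the lowest of the 6 arrays in both, and LP1 the LP array nearest to CP.

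Prx1 was called through Ta_6572_1_S1_a_at, with 3.17, 3.20 and 2.78 at LP against 3.94, 4.11 and 3.81 at CP, all of them dim. The change was -0.90 (SE 0.18, limma adjusted p = 0.0374) and -0.76 without LP3 (adjusted p = 0.0543). The other 3 of its 4 probe sets had changes of -0.17, 0.08 and 0.01. One Prx1 probe set thus fell at the dim end of the scale while the other changes were smaller than 0.2 in size.

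Among genes with a locus number only, LOC543066 had the largest rise. Its levels were 7.29, 6.86 and 6.65 at LP against a dim 4.44, 4.19 and 4.03 at CP, a change of 2.71 (SE 0.51, limma adjusted p = 0.0335), or at least 6.56-fold, and 2.86 without LP3 (adjusted p = 0.0422). LOC606366 had 7.84, 8.89 and 9.0 at LP against 5.67, 7.36 and 5.44 at CP (2.42, SE 0.46, adjusted p = 0.0349; without LP3 2.21, adjusted p = 0.0576). CP2 was the CP array nearest to LP in that gene, and 3 other probe sets of LOC606366 had changes of 0.90 to 1.89 that were not called. LOC543085 was the brightest gene that rose, with 12.62, 12.82 and 12.37 at LP against 10.17, 11.07 and 10.37 at CP, or 4.2-fold (2.07, SE 0.40, adjusted p = 0.0355; without LP3 2.19, adjusted p = 0.0445).

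LOC778407 and LOC606370 rose as well and stayed called without LP3. LOC778407 had 8.68, 8.57 and 8.75 at LP against 7.12, 6.94 and 7.52 at CP (1.47, SE 0.23, limma adjusted p = 0.0203; 1.43 without LP3, adjusted p = 0.0329). LOC606370 had 8.74, 8.66 and 8.77 at LP against 7.88, 6.91 and 7.22 at CP (1.39, SE 0.21, adjusted p = 0.019; 1.36 without LP3, adjusted p = 0.0313), and changes of 0.85 and 0.84 were seen in its other 2 probe sets. LP3 lay close to LP1 and LP2 in both genes.

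LOC606343 had the smallest adjusted p of the annotated genes. It stood at 7.89, 7.75 and 7.54 at LP against 6.58, 6.41 and 6.62 at CP, and rose 2.28-fold (1.19, SE 0.14, limma adjusted p = 0.00849; without LP3 1.28, adjusted p = 0.00896). Its other 3 probe sets had changes of 1.05, 1.01 and -0.16 that were not called, with LP3 below all CP arrays in the first 2, and TaAffx_120000_1_S1_at was called without LP3 (1.7, limma adjusted p = 0.0256). LOC100049042 followed, with 8.89, 8.8 and 9.08 at LP against 7.98, 7.55 and 7.77 at CP (1.16, SE 0.15, adjusted p = 0.0104; without LP3 1.08, adjusted p = 0.0212). Both stayed called under 19 of 23 alternative settings, the most of the annotated genes. Among the settings that lost them were the fits on the Xindong20 arrays alone, with or without LP3, and the fit with the poly-A spikes.

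Another 5 genes rose by 1.1 to 1.46 and were lost without LP3. LOC543357 (1.46), LOC542968 (1.4), LOC543342 (1.27), LOC543018 (1.25) and both probe sets of LOC542999 (1.15 and 1.1) had adjusted p-values from 0.0401 to 0.0495 in limma with LP3 in. Without it their changes were 1.53, 1.22, 1.1, 1.06, 1.09 and 1.05. LP3 was the highest LP array for LOC542968, LOC543342 and LOC543018. The second probe set of LOC543342, Ta_27762_1_S1_x_at, had a change of -0.19 (limma adjusted p = 0.893).

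LOC606373 had the largest fall among the called annotated genes and the most called probe sets, 3, of any annotated gene. Ta_3957_1_A1_x_at stood at 8.05, 6.69 and 6.78 at LP against 9.22, 8.82 and 9.04 at CP (-1.86, SE 0.31, limma adjusted p = 0.0251; -1.66 without LP3, adjusted p = 0.0413). Ta_3957_1_A1_at (-1.63) and Ta_3957_2_A1_at (-1.07) were called as well, and the other 5 of its 8 probe sets had changes from -2.15 to -0.44. LP1 lay nearer to CP than LP2 and LP3 in the called probe sets. LOC606316 fell with little spread, at 9.70, 9.61 and 9.88 at LP against 11.04, 11.02 and 10.94 at CP (-1.27, SE 0.21, adjusted p = 0.0224; -1.35 without LP3, adjusted p = 0.0293), with -1.44 in the second probe set for the gene.

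LOC100125710 had 9.85, 10.21 and 10.12 at LP against 11.77, 12.23 and 11.05 at CP (-1.63, SE 0.32, limma adjusted p = 0.0381; -1.66 without LP3, adjusted p = 0.0528). The other 2 probe sets of this gene had changes of -1.04 and -1.65. LOC542790 had 5.45, 5.62 and 6.32 at LP against 6.88, 6.97 and 7.37 at CP (-1.27, SE 0.28, adjusted p = 0.0497), and its change was larger in size without LP3 (-1.54, adjusted p = 0.0276). LOC542827 (-0.79) and LOC542853 (-0.51) were the smallest falls, with adjusted p-values of 0.0468 and 0.0413, and were lost without LP3 (-0.64 and -0.48).

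Calls of single genes depended on which arrays entered. Counted over the 23 annotated and the 4 unannotated probe sets named above as called by largest change, 15, 8 and 13 stayed called when LP1, LP2 or LP3 was left out, and 6, 6 and 8 when CP1, CP2 or CP3 was. Leaving out Xindong23 arrays kept 23, 15 and 21 for LP1, LP2 and LP3 and 11, 8 and 9 for CP1, CP2 and CP3. With the Xindong20 arrays alone 2 of the 27 stayed called, and with the spike covariate 1. No sign turned in any of these settings.

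Without LP3, 34 of the 1273 annotated probe sets were called, beside 2.26% of all probe sets. Leaving out LP3 also brought in 21 annotated genes that were not called with it, 12 higher and 9 lower at LP. The 8 largest in each direction are given here, and in 9 of these 16 LP3 still lay beyond all CP arrays on the called side, in 3 it lay inside their range and in 4 it lay past them on the other side. AGP-S, the small subunit of ADP-glucose pyrophosphorylase, which commits sugar to starch, had 7.92, 8.05 and 6.58 at LP against 6.82, 6.69 and 6.98 at CP. Its change was 0.68 with LP3 (limma adjusted p = 0.352) and 1.15 without it (adjusted p = 0.0483). LP1 and LP2 lay above and LP3 below all CP arrays.

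GA20ox1d encodes a gibberellin 20-oxidase, an enzyme late in the synthesis of the growth hormone gibberellin. Ta_141_1_S1_at stood at a dim 3.13, 3.18 and 3.30 at LP against 3.91, 3.68 and 3.68 at CP, with no overlap. The change was -0.55 (SE 0.12, limma adjusted p = 0.0509) and -0.60 without LP3 (adjusted p = 0.0461). Its other probe set had -0.53, and the related GA20OX1-A and GA20ox1b had -0.34 and -0.17. All 4 probe sets of this enzyme had negative changes at low signal.

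ATI, an amylase and trypsin inhibitor best known from the grain, had a dim 2.74, 2.77 and 3.48 at LP against 3.70, 3.22 and 3.63 at CP (-0.76 without LP3, limma adjusted p = 0.0418; -0.52 with it). The chloroplast gene rbcl, for the large subunit of Rubisco, was called without LP3 through TaAffx_128414_15_S1_at, with 3.45, 3.66 and 4.73 at LP against 4.60, 4.20 and 4.48 at CP (-0.87, adjusted p = 0.0276). LP3 lay above every CP array there. Of the 28 rbcl probe sets 21 were dim in both groups. TaAffx_128414_15_S1_at was dim at LP only, with a CP mean of 4.43. The rest went both ways without LP3 and were not called, with changes of -1.21 and -0.45 and of 0.84, 0.52, 0.36 and 0.28. The call thus holds for probe sets of low signal and not for the gene as a whole.

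Of the genes with a locus number, LOC542796 and LOC543416 had the largest falls without LP3. LOC542796 had 5.82, 4.05 and 6.58 at LP against 8.29, 8.50 and 7.49 at CP (-3.16 without LP3, limma adjusted p = 0.042; -2.61 with it, adjusted p = 0.071). LOC543416 had 5.55, 5.29 and 6.61 at LP against 8.96, 8.60 and 7.36 at CP (-2.89 without LP3, adjusted p = 0.0403; -2.49 with it, adjusted p = 0.0524). The LP arrays lay below the CP arrays in both genes with LP3 counted. LOC543023, LOC543242 and LOC780599 fell by 0.74, 0.64 and 0.62 on the log2 scale without LP3.

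The rises called without LP3 only were led by LOC543150, through Ta_21350_2_S1_at with 7.65, 7.84 and 5.90 at LP against 5.88, 5.82 and 5.57 at CP (1.98 without LP3, limma adjusted p = 0.0225). The brighter probe set of this gene, Ta_30711_1_S1_x_at, had 12.49, 13.06 and 11.58 at LP against 12.80, 13.02 and 12.98 at CP, a change of -0.55 with LP3 and -0.15 without it. LOC543216 had 8.07, 7.85 and 6.87 at LP against 6.59, 6.33 and 6.48 at CP (1.5, adjusted p = 0.00605). In the called probe set of each gene LP3 was the lowest LP array and lay just above CP. In the other LOC543216 probe set, Ta_21055_1_S1_at, LP3 was instead the highest LP array at 6.47. Its change of 0.98 was not called (limma adjusted p = 0.0677), nor was that of 0.81 without LP3 (adjusted p = 0.0984). One probe set each of LOC543445, LOC778415, LOC780574 and LOC542942 rose by 1.71, 1.36, 1.3 and 1.17 without LP3, and there LP3 lay among the CP arrays or below them. The other 2 probe sets of LOC778415 had changes of -0.39 and -0.20 without LP3, and those of LOC780574 had 0.95, 0.64, -0.05 and -0.52. LOC543452 differed from these, since LP3 was its highest array at 7.91, against 6.16 and 6.23 on LP1 and LP2, with 4.91, 4.70 and 5.17 on the CP arrays (1.27 without LP3, adjusted p = 0.0463; 1.84 with it, adjusted p = 0.0595).

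The 102 genes with a descriptive name were grouped by role to show what the roots did across known functions. Of their 200 probe sets 0 rose and 2 fell (SAHH and Prx1), beside the 1.75% called over all probe sets. Without LP3, 1 rose (AGP-S) and 4 fell (GA20ox1d, ATI and a pair for rbcl), beside 2.26%. Changes were positive in 94 of the 200, with a median of -0.02 with LP3 and -0.10 without it, against -0.05 and -0.11 over all probe sets. LP arrays lay all above the CP arrays in 17 probe sets and all below in 25, close to the 9.18% and 13.6% of all probe sets. Below, values of a gene are those of its probe set with the smallest p unless others are named.

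**Figure D4:**
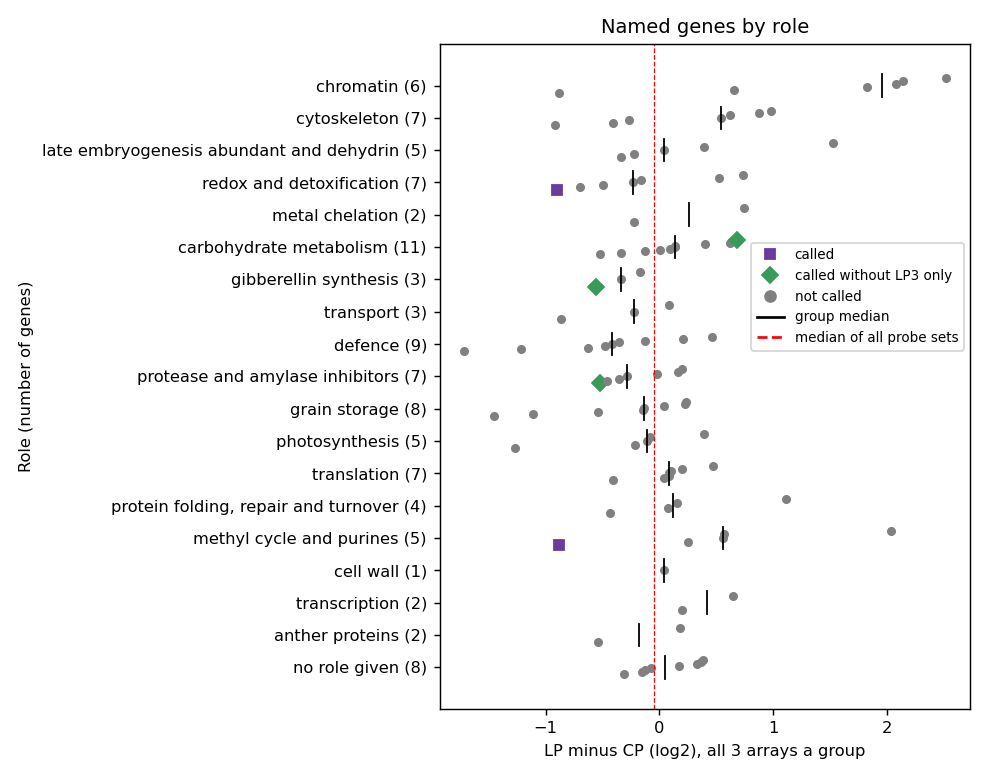
Each point is 1 named gene, through its probe set with the smallest p, placed by its log2 LP minus CP change over 3 arrays a group and by its role, with the number of genes in brackets and the group median as a bar. The squares are the called genes Prx1 (-0.90) and SAHH (-0.88), the diamonds the 3 called without LP3 only, the dashed line the median of all probe sets (-0.05), and the chromatin genes reach farthest to the right with a median of 1.95.

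Core histones, which package DNA and are made mainly while cells copy it, led the chromatin genes, the role with the largest median change (1.95), and had no call. The 5 genes, H2A-2, H2A-3, H2A-9, wcH2B-6 and wcH2B-8, were covered by 18 probe sets. Of these, 17 had a positive change, beside 44.3% of all probe sets. The median change of the 18 was 2.20 with LP3 and 2.45 without it. Limma called 0 of the 18 with or without LP3, beside 1.75% and 2.26% of all probe sets. In limma 10 had an unadjusted p under 0.05, beside 18.5% of all probe sets, and adjusted p-values ran from 0.0671 to 0.807. In 7 probe sets all LP arrays lay above all CP arrays and in 1 they all lay below, beside 9.18% and 13.6% of all probe sets.

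H2A-9 had changes between 2.38 and 3.28 over its 6 probe sets. Ta_27657_12_S1_at stood at 9.17, 6.87 and 7.62 at LP against 6.26, 4.80 and 5.03 at CP (2.52, limma adjusted p = 0.0671). Ta_7378_1_S1_at of wcH2B-8 stood at 9.59, 7.00 and 7.39 at LP against 6.32, 5.36 and 6.05 at CP (2.08, adjusted p = 0.193). LP1 was the highest LP array and CP1 the highest CP array in 17 of the 18 probe sets, with medians of 9.89, 7.09 and 7.64 on the LP arrays and 7.12, 5.85 and 5.59 on the CP arrays. The medians of LP2 and LP3 thus lay close to that of CP1, and the groups overlapped in most of these probe sets.

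**Figure D5:**
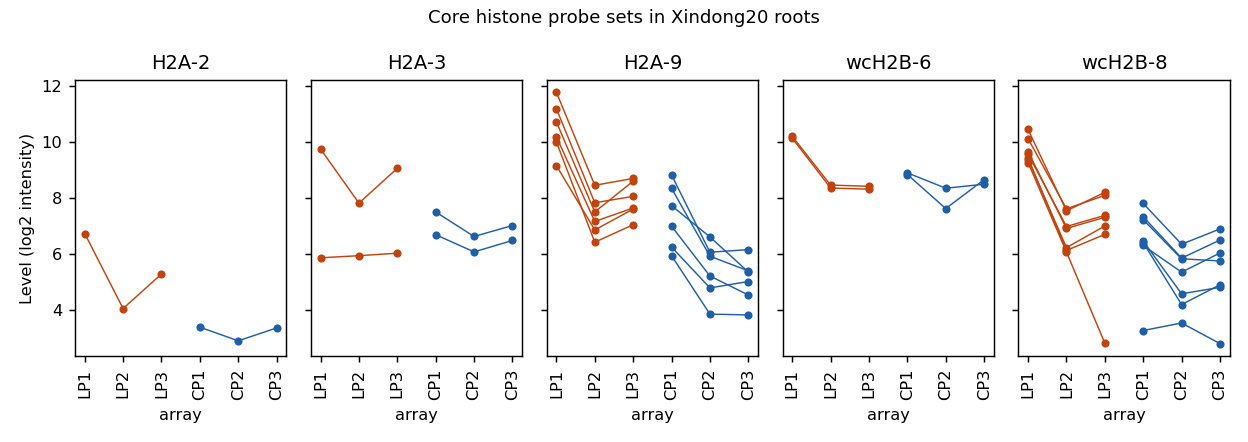
Log2 level of the 18 core histone probe sets on the 6 arrays, 1 panel a gene and 1 line a probe set within each group, LP left of CP. LP1 is the highest LP array in 17 probe sets and CP1 the highest CP array in 17.

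Other proteins of dividing and growing cells gave no call either, beside 1.75% of all probe sets. Hmgb3, a chromatin protein that bends DNA, had 11.43, 11.09 and 5.99 at LP against 10.92, 10.10 and 10.14 at CP through Ta_30768_1_S1_x_at, so that its change was -0.88 with LP3 and 0.88 without it. The tubulin genes and profilin (PRO1, which binds actin) had changes from -1.03 to 0.99 over 12 probe sets of 7 genes, with a median of 0.34. PRO1 repeated the pattern of Hmgb3 in Ta_5057_1_S1_x_at, with 10.82, 11.13 and 6.98 at LP against 10.61, 10.73 and 10.66 at CP. LP3 was the lowest of the 6 arrays in 6 of the 12.

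Genes of protection from drying showed little separation between the phosphorus levels. All groups were under PEG, and the effect of PEG on these genes was not tested. The LEA gene stood at 8.47, 9.79 and 9.17 at LP against 9.24, 8.95 and 9.11 at CP (0.04, limma adjusted p = 0.982). The rab gene, of the dehydrin family, had its largest change in TaAffx_46097_2_S1_at, with 4.87, 7.34 and 8.09 at LP against 5.30, 5.52 and 4.89 at CP (1.53, adjusted p = 0.427). LP1 lay just below the CP arrays for rab, and LP2 and LP3 lay above them. The other rab probe sets, which were brighter, had changes of 0.30 and 0.20. The dehydrin gene COR410 and the Em genes had changes from -0.34 to 0.39, most of them dim.

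Redox genes had negative changes in 5 of 7 genes and in 9 of their 15 probe sets. Over all probe sets 44.3% of changes were positive, so most were negative there too. CAT1, a catalase that breaks down hydrogen peroxide, had 4.26, 3.81 and 3.75 at LP against 4.50, 4.74 and 4.67 at CP (-0.70, limma adjusted p = 0.0857; -0.60 without LP3, adjusted p = 0.12). PER1 had 6.41, 6.65 and 6.15 at LP against 6.75, 7.01 and 6.92 at CP (-0.49, adjusted p = 0.13). LP lay below CP in both genes without overlap, as it did in 13.6% of all probe sets. GSTZ1, a glutathione transferase, had the largest positive change of the group (0.74, adjusted p = 0.298).

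Carbohydrate genes had changes from -1.18 to 0.68 over 15 probe sets of 11 genes. The fructan exohydrolase 6-FEH, which releases sugar from the storage polymer fructan, had 4.93, 5.20 and 5.15 at LP against 5.88, 5.49 and 5.47 at CP (-0.52, limma adjusted p = 0.125), with -1.18 and -0.11 in 2 dimmer probe sets. Its relative 1-FEH, at 9.95, 9.75 and 10.95 at LP against 10.36, 10.03 and 10.24 at CP, had a change of 0.0032. LP3 was its highest array, and without LP3 the change was -0.36. Pgk-1, a phosphoglycerate kinase, followed AGP-S in shape, with 6.77, 6.71 and 5.21 at LP against 5.64, 5.81 and 6.04 at CP (0.40 with LP3, 0.91 without it, adjusted p = 0.0939).

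In the methyl cycle and purine group SAHH fell and the other 4 genes had positive changes. PEAMT1, which methylates phosphoethanolamine toward choline, had 9.75, 6.6 and 4.37 at LP against 5.35, 4.34 and 4.93 at CP (2.03, limma adjusted p = 0.458). Its LP arrays spanned more than 5 log2 units, with LP1 far above and LP3 within the CP level. AdSS, adenylosuccinate synthetase of purine synthesis, had 9.48, 9.16 and 8.77 at LP against 8.67, 8.44 and 8.61 at CP (0.56, adjusted p = 0.231) without overlap.

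Transport genes (5 probe sets) and metal genes (4) gave no call, beside 1.75% of all probe sets. So few probe sets would seldom hold a call at that share. The plasma membrane H+-ATPase, the proton pump that energises nutrient uptake, had 12.12, 12.05 and 10.19 at LP against 12.46, 12.21 and 12.28 at CP through Ta_28364_1_S1_x_at (-0.87, limma adjusted p = 0.311; -0.23 without LP3). ALMT1-1, a malate channel of roots, was dim with a change of 0.08. PCS1, a phytochelatin synthase that binds heavy metals through its product, had 6.26, 6.72 and 5.19 at LP against 4.60, 5.82 and 5.53 at CP (0.74, adjusted p = 0.426). DMAS1, of the synthesis of iron-chelating phytosiderophores in grass roots, had 8.63, 7.70 and 8.72 at LP against 8.48, 9.26 and 7.98 at CP (-0.22, adjusted p = 0.825).

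Defence genes had negative changes in 7 of 9 genes, where 44.3% of changes over all probe sets were positive. Of their 14 probe sets 10 were dim in both groups, and 0 were called. Glc1 had the largest, with 10.43, 10.39 and 6.83 at LP against 10.69, 11.26 and 10.86 at CP (-1.72, limma adjusted p = 0.334), and -0.53 without LP3. PR5, a pathogenesis-related protein, ranged over 6.16, 8.14 and 7.74 at LP and 5.58, 8.66 and 9.21 at CP (-0.47, adjusted p = 0.823). WGA2, the wheat germ agglutinin, had a change of -0.42 at low signal.

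The zinc finger gene WZF1 gave a bright signal, with 12.24, 12.41 and 12.76 at LP against 11.85, 11.64 and 11.96 at CP (0.65, limma adjusted p = 0.0712; 0.50 without LP3, adjusted p = 0.0909). All LP arrays lay above all CP arrays. Of 7 translation genes, Eif4B, an initiation factor, had 10.12, 9.92 and 10.24 at LP against 10.55, 10.30 and 10.66 at CP (-0.41, adjusted p = 0.176), and RPS29, a ribosomal protein, had a change of 0.47 (adjusted p = 0.126). PCM, which repairs aged protein residues, had 5.45, 6.64 and 4.45 at LP against 4.19, 4.68 and 4.35 at CP (1.11 with LP3, 1.64 without it, adjusted p = 0.0821). The ubiquitin-conjugating gene UBC1, the immunophilin FKBP70 and the small heat shock gene hsp16.9A had changes of -0.43, 0.16 and 0.07.

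Markers of leaf, grain and anther were mostly low in these root samples. Of the photosynthesis genes other than rbcl, OEE1, OEE2, PRK and petC lay between 2.10 and 5.02 on the 6 arrays. Among the rbcl probe sets a pair was bright, such as Ta_24976_1_S1_x_at with 10.26, 10.30 and 8.78 at LP against 10.19, 9.91 and 9.64 at CP. The most negative rbcl value was in TaAffx_128414_181_S1_at, with 6.41, 7.32 and 6.70 at LP against 7.65, 8.39 and 8.19 at CP (-1.27, limma adjusted p = 0.0622), and no overlap. Of 17 probe sets for grain storage proteins 11 were dim in both groups, and 1 for the avenin-like gene ALP was bright (9.70, 9.84 and 10.14 at LP, 9.49, 9.6 and 9.4 at CP). Limma called 0 of the grain storage probe sets, beside 1.75% of all probe sets. In limma 3 of them had an unadjusted p under 0.05, close to the 18.5% of all probe sets. Protease and amylase inhibitors (9 of 10 probe sets) and anther proteins (3 of 4) were dim in both groups too, with medians over probe sets of -0.15 and -0.06 and 0 calls with LP3. XTH, of cell wall loosening, had a change of 0.04 and the 13 probe sets of genes given no role had a median of 0.11.

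Xindong23 roots under the same treatments were used to see where the response of Xindong20 differed. The interaction, which takes the change in Xindong23 off that in Xindong20, was called for 81 probe sets (0.132%), of which 76 were among the 1072. Without 1 Xindong20 array it was called for 147, 19 and 206 (LP1, LP2, LP3) or 13, 8 and 6 (CP1, CP2, CP3). Without 1 Xindong23 array the counts were 37, 15 and 3 (LP1, LP2, LP3) and 11, 3 and 3 (CP1, CP2, CP3). Of the 1072, 438 had the same sign in Xindong23, and 1052 were smaller in size there, which choosing them by their Xindong20 change favours.

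Ta_2870_2_S1_at rose by 4.51 in Xindong20 and had a change of 0.13 in Xindong23, where LP averaged 5.48 and CP 5.35 (interaction 4.38, SE 0.37, limma adjusted p = 0.00569). For its partner Ta_2870_1_S1_at the changes were 3.88 and -0.19 (interaction 4.06, adjusted p = 0.0321). Of the 20 annotated genes called in Xindong20, LOC606343 was the 1 called in the interaction, with 1.19 in Xindong20 and -0.21 in Xindong23, where LP averaged 7.38 and CP 7.58 (interaction 1.4, SE 0.20, adjusted p = 0.0404). Its other 3 probe sets had interactions of 1.09, 0.75 and -0.13 that were not called. Ta_6744_2_S1_s_at rose by 8.13 in Xindong20 and had a change of 8.09 in Xindong23 (interaction 0.05, adjusted p = 0.99). Of the 23 annotated probe sets called in Xindong20, 11 had the same sign in Xindong23.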

How the data were processed

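Total RNA of seedling roots was hybridised to Affymetrix wheat arrays, 12 in all, 3 for each of 4 groups of variety and phosphorus level. The values are log2 intensities as deposited by the authors; Affymetrix Expression Console 1.4.1 and RMA are named per the submitters' processing notes, without their order or settings. The log base is not stated and was inferred from values of about the size that RMA gives. No scan date or batch was given. Of 61290 probe sets, 111 controls were left out. The deposited values carry no detection calls, and the number of arrays limits the precision.

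Group means were fitted to all 12 arrays with limma 3.58.1 in R 4.3.3 (empirical Bayes, two-sided, Benjamini-Hochberg over 61179 probe sets), and the fit was tested on simulated data. The platform annotation, which is old, gave 1273 probe sets 1 gene each and none several; 770 of 771 genes matched RefSeq by Entrez ID, most with a locus number only. Named were every annotated gene called, the 8 largest rises and falls called only without LP3, and members of lists that were called or had the smallest p. The largest changes among unannotated probe sets called with and without LP3 were named as well. Of 25 lists searched by name pattern, 21 found a gene, and since patterns missed genes the 102 named genes were regrouped by hand into 19 roles; role members beyond the rule were named after their values were seen. The members and lists were chosen with earlier results of these data known. Where a gene had several probe sets, the one with the smallest p stood for it. Alternatives changed the scaling, variance model, filter, covariates and arrays used.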

Additional observations from a re-analysis of the deposited data

Results flagged for a closer look

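LOC606343 responded differently in the varieties through 1 of its 4 probe sets, Ta_20461_1_S1_at, with an interaction of 1.4 on the log2 scale (SE 0.20, limma adjusted p = 0.0404): a change of 1.19 in Xindong20 and -0.21 in Xindong23. All 3 Xindong20 LP arrays lay above the CP arrays. The interaction was called under 7 of 21 alternative settings, with values of 1.21 to 1.51 and adjusted p-values of 0.00465 to 0.16. The other 3 probe sets had interactions of 1.09, 0.75 and -0.13 (limma adjusted p = 0.519, 0.802 and 0.822), and in 2 of them LP3 lay below the CP arrays.

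Ta_2870_2_S1_at, which is unannotated, had an interaction of 4.38 (SE 0.37, limma adjusted p = 0.00569), with a change of 4.51 in Xindong20 and 0.13 in Xindong23. The interaction was called under 20 of the 21 settings and lay between 3.95 and 4.58. Its partner Ta_2870_1_S1_at had an interaction of 4.06 (adjusted p = 0.0321), called under 10 of them.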

How the results depend on the processing

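Of LP against CP in Xindong20 there were 1072 calls and of the variety difference 81. Quantile normalization (1283 and 65) and a filter on dim probe sets (915 and 76) moved both by less than 1.5 times. With trended variance they were 555 and 14. With array weights they were 16449 and 4208, with a covariate for the poly-A spikes 5 and 265, and with the ubiquitin 3' minus 5' difference as a covariate 5761 and 2626. Leaving out replicate 3 of LP in both varieties gave 4750 and 571. Median centring gave 1015 and 193. The Xindong20 arrays alone gave 5 calls, and 135 without LP3, a setting chosen after seeing the data. Leaving out 1 array at a time gave 149 to 1461 calls of LP against CP and 3 to 206 of the variety difference.

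With the replicate number as a block, 36 and 2 were called. Same-numbered LP and CP arrays deviated together with correlations of 0.19, 0.281 and 0.0739 in Xindong20 and 0.355, -0.157 and 0.19 in Xindong23. Differently numbered arrays had -0.266 to 0.0691 in Xindong20 and -0.434 to 0.286 in Xindong23. In Xindong20 each LP array thus had its highest correlation with the CP array of the same number. The main fit was left unpaired, and whether the numbers pair the samples cannot be told from these values.

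No named call changed its sign under any of the 23 settings in which it was tested. Of the 27 named calls, array weights kept 26, the ubiquitin covariate 27, median centring 22, quantile normalization 21, trended variance 16 and the block 2. Median centring gave 664 higher and 351 lower. Probe sets near the array medians carry little signal over background. Why counts moved was not tested.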
